A study of Drosophila melanogaster with 16 samples.

Results

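Burdock, mdg3, micropia and Transpac are LTR retrotransposons of the Gypsy superfamily in Drosophila melanogaster, and were taken as the 4 families with these names out of 125 transposon names in the deposited tables. They were chosen because their steady-state or nascent RNA stood far higher after germline loss of piwi, so those ratios describe the choice and no test rests on them. All 4 were listed in every table. All 4 passed the filters behind the ratios below, which ask for 1 RPM (reads-per-million) on average for RNA and for 100 reads in each library for H3K9me3.

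The samples were ovaries of flies aged 3 to 5 days and kept at 25 degrees. They carried a knockdown of piwi or, as control, of white, driven by nos-GAL4 or by tj-GAL4, so that the groups were nos piwi, nos white, tj piwi and tj white. Each group had 1 sample in RNA-seq, GRO-seq (run-on sequencing of nascent RNA), H3K9me3 ChIP-seq and ChIP input, 16 samples in all. The series' design text gives 2 replicates for RNA-seq, but each condition had 1 RNA-seq value per strand here, so no difference below has a replicate check. The nos promoter drives expression in the germline and tj in the somatic cells around it. The assays used whole ovaries, in which fewer cells of a type and less RNA per cell cannot be told apart. Host genes were not used here, so neither the depth of the knockdowns nor the tissue was checked.

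A retrotransposon of this kind is transcribed from its long terminal repeat into an RNA that serves both as template for new copies and as message for the Gag and Pol proteins. In the fly ovary such RNAs are silenced by piRNAs, small RNAs that guide Piwi, an Argonaute protein, to nascent transcripts in the nucleus. There Piwi recruits silencing factors, and trimethylation of lysine 9 on histone H3 (H3K9me3), a mark of silent chromatin, is laid down. Burdock is widely used as a marker of lost germline silencing in this species. The reference name table lists 24 insertions named Burdock, 21 named mdg3, 13 named micropia and 8 named Transpac.

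Under the nos driver, the steady-state sense RNA of mdg3, Burdock and Transpac was 138-fold, 113-fold and 72.1-fold higher in piwi knockdown, and that of micropia 9.80-fold, each as a ratio of RPM + 1. Burdock had 854 RPM in nos piwi ovaries, against 6.60 RPM in nos white, 19.7 RPM in tj piwi and 17.3 RPM in tj white. The nos piwi sample thus stood far above the other 3, and nos white was the lowest. For mdg3 the sense RNA was 1576 RPM in nos piwi and 10.5 RPM in nos white, and 44.2 RPM in tj piwi and 15.0 RPM in tj white. Transpac had 1603 RPM in nos piwi and 21.2 RPM in nos white, and 28.5 RPM in tj piwi and 10.6 RPM in tj white. Both families were highest in nos piwi and second highest in tj piwi. The sense RNA of micropia was low in every library, at 32.1 RPM in nos piwi and 2.37 RPM in nos white, and 7.12 RPM in tj piwi and 1.61 RPM in tj white.

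On the scale of RPM + 1, used for every RNA ratio between knockdowns or drivers, mdg3 ranked 5th of 113 families in the nos ratio of sense RNA (log2 ratio 7.10), Burdock 7th (6.81), Transpac 11th (6.17) and micropia 25th (3.29). The choice of members had no fixed threshold. The families next to them in this order were 3S18 (7.25) above mdg3, TAHRE (6.95) between mdg3 and Burdock, GATE (6.67) below Burdock, gypsy12 (6.31) above and Tirant (5.87) below Transpac, and HMS-Beagle2 (3.49) above and invader6 (2.96) below micropia. At least 2-fold higher sense RNA under nos was found in 4 of 4 members and in 52.2% of all 113 families, a share from which nothing is read since the members were chosen on it. Over all families, 59 were 2-fold higher and 0 lower. After centring on the median family, 33.6% were 2-fold higher and 13.3% lower, and 4 of 4 members were higher. Of 41 other Gypsy-superfamily families, a list that contains gypsy, ZAM, Tirant and the like, 25 passed that size, with a median log2 ratio of 1.77. The median over all families was 1.10, and the members lay 2.19 (micropia) to 6.01 (mdg3) above it. Together the 4 members made up 9.17% of the sense transposon RPM in nos piwi ovaries and 0.512% in nos white.

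**Figure D1:**
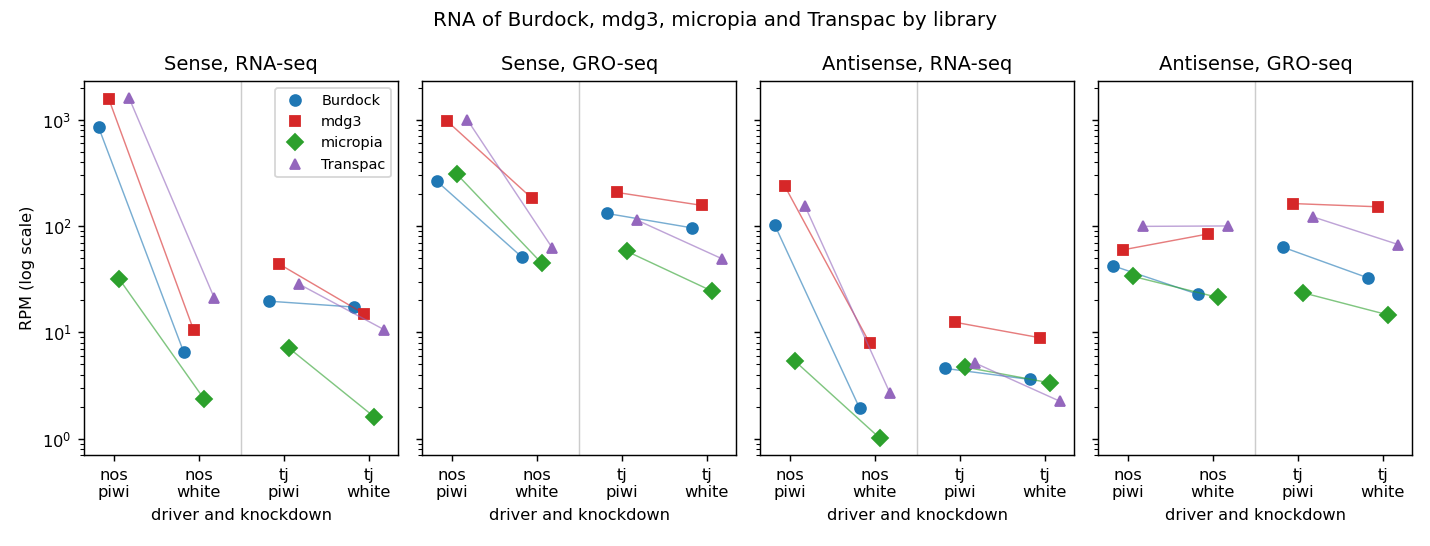
RPM of each member (log scale) by driver and knockdown, with 1 value per library, for both strands in RNA-seq and GRO-seq; lines join piwi to white knockdown of the same driver. Sense RNA in nos piwi reached 1603 RPM for Transpac and 1576 RPM for mdg3, while antisense GRO-seq values of mdg3 were 59.8 RPM in nos piwi and 84.3 RPM in nos white.

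Nascent sense RNA under nos was also higher for all 4 members, but in a different order. Transpac had 1006 RPM in nos piwi and 62.6 RPM in nos white, the highest ratio of all 122 families in GRO-seq (log2 ratio 3.98), with Tirant (3.80) next. For micropia the nascent sense RNA was 308 RPM in nos piwi and 44.5 RPM in nos white (2.76, 5th). That ratio stood between those of gypsy12 (3.14) and GATE (2.70). The nascent sense RNA of mdg3 was 980 RPM in nos piwi and 183 RPM in nos white (2.41, 10th), between invader3 (2.44) and McClintock (2.36). Burdock had 266 RPM in nos piwi and 51.5 RPM in nos white (2.35, 14th), between gypsy7 (2.36) and Circe (2.33). Micropia, last of the 4 in RNA-seq, was second in GRO-seq, and the ratios of mdg3 and Burdock were 5.32-fold and 5.09-fold. With 1 library each, no order among the members could be tested. At least 2-fold higher nascent sense RNA was found in 34.4% of the 122 families, in 19 of 43 other Gypsy-superfamily families (median log2 ratio 0.71) and in 4 of 4 members (median 2.59), which the choice had fixed. The median of all families was 0.52. Over all families, 42 were 2-fold higher and 1 lower, and after centring 22.1% were higher, 6.56% were lower and 4 of 4 members were higher.

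The tj contrast was not used to choose the members. In tj piwi ovaries 3 of 4 members had sense RNA at least 2-fold above tj white, where 38.9% of all 113 families and 27 of 41 other Gypsy-superfamily families did. Micropia was 3.11-fold, mdg3 2.82-fold and Transpac 2.54-fold higher, while Burdock was 1.13-fold the control. With a pseudocount of 5 RPM micropia missed 2-fold (log2 ratio 0.87) and 2 of 4 members passed, beside 30 of 113 families. The members' median log2 ratio was 1.42, beside 1.43 for the other Gypsy-superfamily families and 0.69 for all. Relative to that overall median 0 of 4 members were 2-fold higher, and Burdock lay below it by 0.51 (centred log2 ratio -0.51), whereas 21.2% of all families were still 2-fold higher and 13.3% were 2-fold lower.

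Nascent sense RNA under tj stood closer to the control than steady-state RNA for mdg3, micropia and Transpac, but not for Burdock (1.36-fold). Burdock had 132 RPM in tj piwi and 96.5 RPM in tj white, and mdg3 had 208 RPM in tj piwi and 157 RPM in tj white. Burdock lay 0.06 and mdg3 0.02 above the overall median log2 ratio of 0.38. For micropia the values were 57.9 RPM in tj piwi and 24.5 RPM in tj white (2.31-fold), and for Transpac 114 RPM in tj piwi and 49.3 RPM in tj white (2.28-fold). Thus 2 of 4 members passed 2-fold, beside 21.3% of all 122 families, and 0 of 4 after centring, beside 13.1%.

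Values of these families also differed between the single nos white and tj white libraries. Sense RNA of Burdock was 0.414 times as high in nos white as in tj white, and its nascent sense RNA 0.539 times. Transpac was 1.91-fold higher in nos white in RNA-seq and 1.27-fold higher in GRO-seq, and micropia 1.29-fold and 1.79-fold higher. For mdg3 the assays differed in direction, with 0.715 times in RNA-seq and 1.17 times in GRO-seq. The median family stood at 0.907 in RNA-seq and 0.995 in GRO-seq. Input RPM in nos white, as a ratio to tj white, was 1.59 for micropia (95% counting interval 1.46 to 1.74), 1.37 for Transpac (1.29 to 1.45), 0.927 for Burdock (0.861 to 0.998) and 0.660 for mdg3 (0.626 to 0.697), beside 1.07 for the median family. In nos piwi, as a ratio to tj piwi, it was 1.54 for micropia, 1.35 for Transpac, 0.911 for Burdock and 0.685 for mdg3, beside 1.10 for the median family. With 1 input library a group, the spread between libraries is unknown. Whether these differences bear on the ratios within a driver was not tested.

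Set side by side, the steady-state ratio exceeded the nascent ratio most for mdg3 and Burdock. Sense RPM in RNA-seq divided by sense RPM in GRO-seq, with nothing added to either, a quotient in which the length of the element cancels, was 3.21 for Burdock in nos piwi and 0.128 in nos white, a 25.1-fold difference. For mdg3 it was 1.61 in nos piwi and 0.0570 in nos white, a 28.2-fold difference. These quotients lay below 1 in nos white and above 1 in nos piwi. Transpac had quotients of 1.59 in nos piwi and 0.339 in nos white (4.70-fold), and micropia 0.104 in nos piwi and 0.0533 in nos white (1.96-fold). Micropia alone of the 4 was near the median family, whose quotient differed 1.88-fold. By the gap between the log2 ratios of RPM + 1, mdg3 (4.69) ranked 5th, Burdock (4.47) 8th, Transpac (2.19) 17th and micropia (0.53) 72nd of 113. The nos values behind these gaps and quotients were those on which the members were chosen, so nothing is read from the ranks.

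Under tj the same quotients differed less for Burdock, mdg3 and Transpac, by at most 2.22-fold. Burdock had 0.149 in tj piwi and 0.180 in tj white, and Transpac 0.250 in tj piwi and 0.215 in tj white. The quotient of mdg3 was 0.213 in tj piwi and 0.0959 in tj white (2.22-fold), and that of micropia 0.123 in tj piwi and 0.0659 in tj white (1.87-fold), beside 1.33-fold for the median family. The assays were scaled separately, so the level of a quotient depends on both scales. The difference between members within a driver does not.

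**Figure D2:**
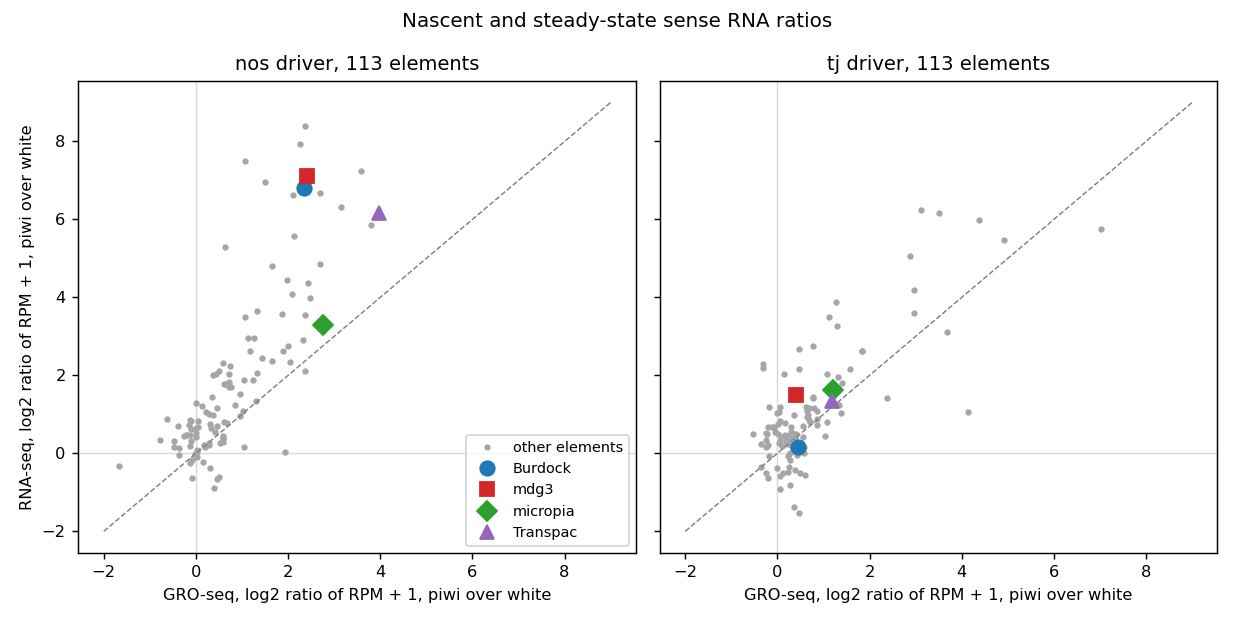
Log2 ratios of RPM + 1, piwi over white knockdown, in GRO-seq (horizontal) and RNA-seq (vertical) for 113 families under nos and under tj; the dashed line marks equal ratios. Under nos, mdg3 (2.41 and 7.10) and Burdock (2.35 and 6.81) lie far above the line and micropia (2.76 and 3.29) near it; under tj all 4 lie close to the other families.

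The strands behaved differently in the 2 assays. In GRO-seq, antisense RNA under nos was not 2-fold higher for any member, beside 14.8% of all 122 families, and after centring beside 13.9% higher and 2.46% lower. Antisense nascent RNA of mdg3 was 59.8 RPM in nos piwi and 84.3 RPM in nos white, and that of Transpac 99.5 RPM in nos piwi and 100.4 RPM in nos white, while their sense strands were 5.32-fold and 15.8-fold higher. Burdock had 42.5 RPM in nos piwi and 22.9 RPM in nos white, and micropia 33.7 RPM in nos piwi and 21.3 RPM in nos white. The antisense share of each element's nascent RPM was therefore low in nos piwi. It was 5.75% in nos piwi and 31.5% in nos white for mdg3, and 9.0% in nos piwi and 61.6% in nos white for Transpac. For micropia the share was 9.86% in nos piwi and 32.4% in nos white, and for Burdock 13.8% in nos piwi and 30.8% in nos white. Of 122 families, mdg3 ranked 6th, Transpac 9th, micropia 10th and Burdock 14th from the lowest in nos piwi, while in nos white the 4 ranked between 18th (Burdock) and 77th (Transpac). Nascent sense RNA under nos, on which the members were chosen, enters this share, so nothing is read from the nos piwi ranks. The median family stood at 47.2% in nos piwi and 55.8% in nos white.

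Under tj the nascent antisense shares of piwi and white knockdown lay closer together. The share was 44.0% in tj piwi and 49.2% in tj white for mdg3, and 51.8% in tj piwi and 57.7% in tj white for Transpac. For micropia it was 29.0% in tj piwi and 37.4% in tj white, and for Burdock 32.5% in tj piwi and 25.3% in tj white. Burdock was the one member with the higher share in piwi knockdown. Its nascent antisense RNA was 63.6 RPM in tj piwi and 32.7 RPM in tj white, 1.92-fold, the largest tj ratio of this strand among the members. No member passed 2-fold on this strand under tj, beside 13.9% of all families, and after centring beside 8.2% higher and 1.64% lower.

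In RNA-seq, antisense RNA under nos was far higher. Transpac had 153 antisense RPM in nos piwi and 2.66 RPM in nos white, mdg3 238 RPM in nos piwi and 7.91 RPM in nos white, and Burdock 103 RPM in nos piwi and 1.94 RPM in nos white. They ranked 5th (Transpac, 42.2-fold), 6th (Burdock, 35.5-fold) and 7th (mdg3, 26.8-fold) of 109 families in this ratio. Micropia had 5.37 RPM in nos piwi and 1.01 RPM in nos white, which is 3.17-fold and ranked 31st. At least 2-fold higher antisense RNA was found in 4 of 4 members and in 48.6% of all families, in the same libraries on which the members were chosen. After centring 3 of 4 members were 2-fold higher, beside 22% of families higher and 10.1% lower. Sense RNA was higher still, so the antisense share of RNA-seq was 8.73% (Transpac) to 14.3% (micropia) in nos piwi and 11.1% (Transpac) to 43.1% (mdg3) in nos white. The rate at which sense reads were counted as antisense is unknown here, and its part in these values was not tested. Under tj, 0 of 4 members passed 2-fold on this strand, beside 17.4% of all families, with ratios of 1.21-fold (Burdock) to 1.89-fold (Transpac).

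**Figure D3:**
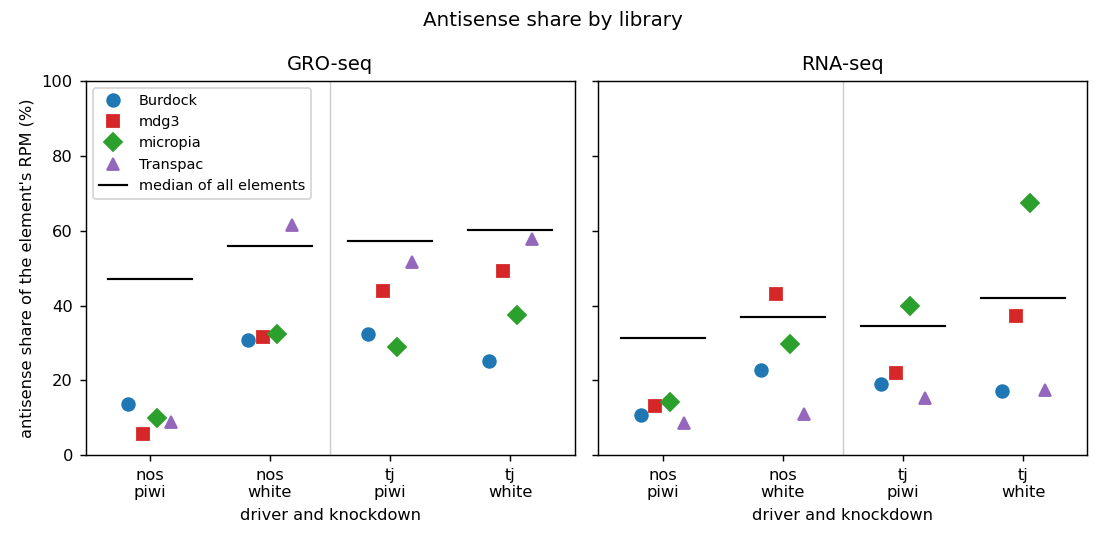
Antisense share of each member's RPM (percent of sense plus antisense) by driver and knockdown in GRO-seq and RNA-seq, 1 value per library; black bars give the median of all families. In GRO-seq the 4 members lie at 5.75% to 13.8% in nos piwi and at 30.8% to 61.6% in nos white. The members were chosen on sense RNA under nos, which is part of these shares.

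H3K9me3 relative to input was lower in piwi knockdown for all 4 members under both drivers. The 95% counting interval of this ratio lay below 1 in 60.9% of all families under nos and in 47.4% under tj. Both without input and with another set of library totals, the 95% counting interval of the ratio stayed below 1 for Burdock, mdg3 and Transpac under nos and for Burdock under tj. Without input it did not for micropia under either driver, nor for mdg3 and Transpac under tj. The members had 1319 to 6621 reads in the H3K9me3 libraries and 826 to 4550 in the inputs. In nos piwi ovaries the enrichment (H3K9me3 RPM over input RPM) was 2.89 for micropia, 1.03 for Burdock, 0.955 for mdg3 and 0.392 for Transpac, beside a median of 2.63 over 115 families. In nos white it was 3.51 for micropia, 1.87 for Burdock, 1.51 for mdg3 and 0.648 for Transpac, beside a median of 2.96. Transpac ranked 5th from the lowest in nos white and was below 1 in all 4 conditions, so its share of the H3K9me3 reads was under its share of the input reads. In tj piwi the enrichment was 3.80 for micropia, 1.45 for Burdock, 1.31 for mdg3 and 0.684 for Transpac, and in tj white it was 4.63 for micropia, 2.14 for Burdock, 1.54 for mdg3 and 0.845 for Transpac.

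Under nos the enrichment of Burdock in piwi knockdown was 0.549 times that in white knockdown (95% counting interval 0.501 to 0.601), the 8th lowest of 115 families. Transpac was at 0.605 (0.556 to 0.658), mdg3 at 0.630 (0.586 to 0.678) and micropia at 0.824 (0.760 to 0.893). The first 3 ranked 8th, 10th and 11th from the lowest and micropia 35th. All 4 intervals lay below 1, as did those of 60.9% of all families, whose median ratio was 0.888, while 6.09% lay above 1. After centring 24.3% lay below 1 and 22.6% above, and the intervals of Burdock, Transpac and mdg3 stayed below. The 41 other Gypsy-superfamily families that passed the read filter had a median of 0.889 and a lowest value of 0.707. Burdock, Transpac and mdg3 thus lay below every family of the list that had a ratio. Tirant missed the filter and had none. Low ratios were not confined to these 3 members. Outside the list, 3S18 was at 0.478, jockey at 0.525 and Juan at 0.571, while Max-element was at 0.855 and GATE at 1.01. These intervals cover counting error between single libraries and say nothing of the spread between ovaries.

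Under tj Burdock was at 0.676 (0.623 to 0.734), 6th lowest of 114 families, Transpac at 0.809 (0.744 to 0.880), micropia at 0.821 (0.745 to 0.905) and mdg3 at 0.848 (0.802 to 0.898). All 4 intervals lay below 1, beside 47.4% of all families, with 4.39% above 1 and a median of 0.909. After centring 17.5% lay below 1 and 19.3% above, and those of all 4 members stayed below. Burdock, with the lowest H3K9me3 ratio of the 4 under tj, was the one whose sense RNA did not pass 2-fold there. After centring, 0 of 4 members passed 2-fold in sense RNA under tj. The H3K9me3 ratio under nos was lower than the ratio under tj for mdg3 (0.743 times, 0.678 to 0.815), Transpac (0.747 times, 0.664 to 0.842) and Burdock (0.812 times, 0.718 to 0.918), and an interval below 1 was found in 28.3% of 113 families (25.7% without input and 90.3% with the other totals). For micropia the drivers differed by a factor of 1.0 (0.884 to 1.14).

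Part of these ratios lay in the input. Input RPM of the members was higher in piwi knockdown under both drivers, by 1.22 to 1.31 times under nos and 1.24 to 1.35 times under tj, where the median family was at 1.13 and 1.08. All 8 input intervals lay above 1, beside 59.1% of families under nos and 43.0% under tj. Burdock had 676 input RPM in nos piwi and 538 RPM in nos white, and 741 RPM in tj piwi and 581 RPM in tj white. Transpac had 1340 input RPM in nos piwi and 1100 RPM in nos white, and 994 RPM in tj piwi and 804 RPM in tj white. The other members followed the same pattern, with 1138 input RPM in nos piwi and 867 RPM in nos white for mdg3 and 671 RPM in nos piwi and 516 RPM in nos white for micropia. With the H3K9me3 libraries alone, the nos ratio was 0.688 (0.649 to 0.730) for Burdock, 0.737 (0.688 to 0.789) for Transpac and 0.827 (0.788 to 0.869) for mdg3, but 1.07 (1.03 to 1.11) for micropia. Under tj it was 0.863 (0.824 to 0.905) for Burdock, 1.0 (0.941 to 1.06) for Transpac, 1.07 (1.04 to 1.11) for mdg3 and 1.11 (1.06 to 1.15) for micropia. Without input, 38.3% of all intervals lay below 1 and 30.4% above under nos, and 37.7% below and 19.3% above under tj. Leaving out input thus put the interval above 1 for micropia under both drivers and for mdg3 under tj, while that of Transpac under tj spanned 1. Divided by the input ratio, the sense RNA ratios under nos were 89.7 for Burdock, 104.9 for mdg3, 59.2 for Transpac and 7.54 for micropia. Under tj they were 0.883 for Burdock, 2.23 for mdg3, 2.05 for Transpac and 2.31 for micropia.

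The authors' deposited table holds the same ratios of H3K9me3 over input for the 4 members as those above, such as 0.549 for Burdock under nos and 0.676 under tj. The authors' deposited table also gives a fold of H3K9me3 without input, scaled 0.839 times the RPM quotient under nos and 1.19 times under tj. In the authors' deposited table the nos fold was 0.578 for Burdock (their adjusted p-value 0.0127), 0.618 for Transpac (0.0145), 0.694 for mdg3 (0.0544) and 0.898 for micropia (0.679). Under tj the authors' deposited table gives folds of 1.03 for Burdock (adjusted p-value 0.934), 1.19 for Transpac (0.583), 1.28 for mdg3 (0.0690) and 1.32 for micropia (0.170). With 1 H3K9me3 sample per group, these p-values do not measure the spread between ovaries. For the values with other library totals, the authors' scale was put on H3K9me3 and input RPM was left unchanged. This moves all families of a driver by the same factor. Under nos all 4 intervals then lay below 1, beside 84.3% of families below and 1.74% above. H3K9me3 over input under nos was 0.460 for Burdock, 0.507 for Transpac, 0.529 for mdg3 and 0.691 for micropia. Under tj it was 0.806 (0.742 to 0.874) for Burdock, 0.964 for Transpac, 0.978 for micropia and 1.01 (0.955 to 1.07) for mdg3, and of the members only Burdock had an interval below 1, beside 8.77% of families below and 40.4% above.

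**Figure D4:**
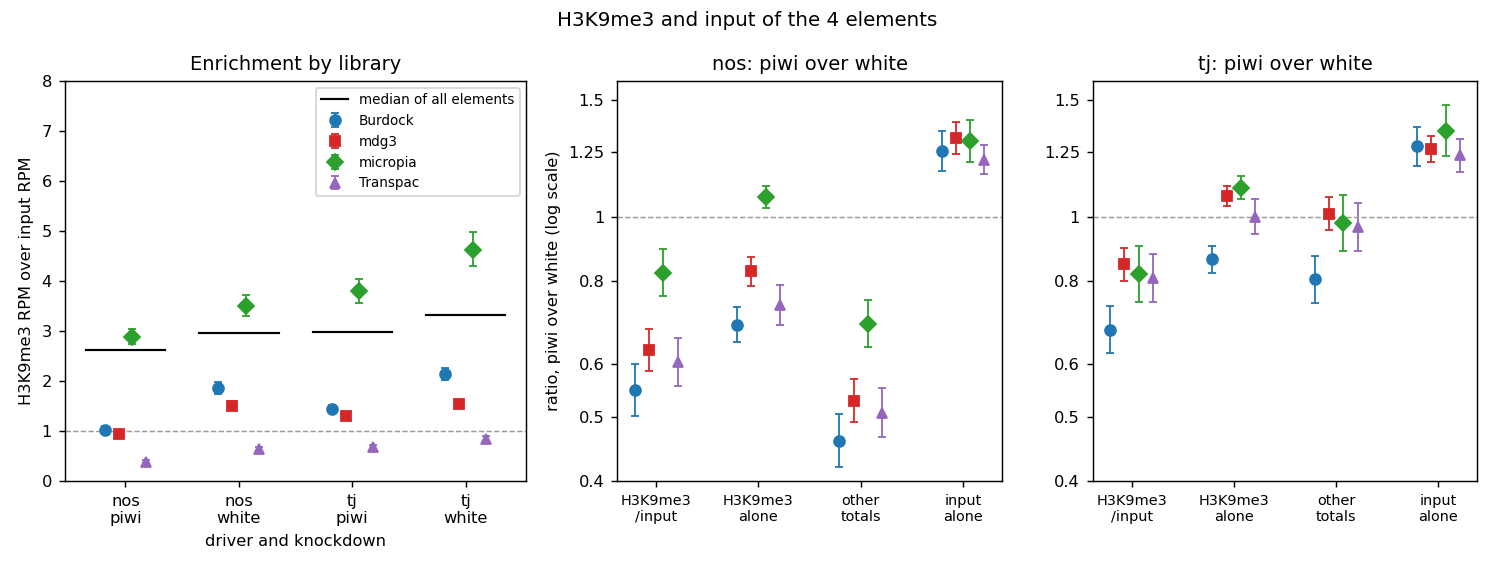
Left, H3K9me3 RPM over input RPM of each member by driver and knockdown, with black bars for the median of all families; middle and right, the ratio of piwi over white knockdown (log scale) for H3K9me3 over input, H3K9me3 alone, H3K9me3 over input with the other library totals, and input alone; bars are 95% counting intervals. Burdock under nos is at 0.549 with input and 0.688 without, and the input ratios of all members lie between 1.22 and 1.35.

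The families whose sense profile was most like that of each member, by Pearson r of log2(RPM + 1) over the 8 sense columns of RNA-seq and GRO-seq, were TART-C (0.979) and Max-element (0.975) for Burdock, Max-element (0.998) and GATE (0.987) for mdg3, 3S18 (0.988) and gypsy12 (0.969) for Transpac, and jockey (0.984) and Juan (0.983) for micropia. Such an r describes 8 columns that share libraries and takes no account of the size of a change: sense RNA of Max-element under nos was 12.5-fold higher and that of mdg3 138-fold. Among themselves, Burdock and mdg3 were most alike (0.969), and mdg3 and Transpac next (0.943). The 8 columns include the nos values on which the members were chosen, so nothing is read from these likenesses. The r of micropia with the other members was 0.767 to 0.868, and mdg3, the member most like it, ranked 26th of the 112 families set against it. Jockey and Juan, the LINE elements nearest to micropia, had 2.85-fold and 4.16-fold higher sense RNA under nos, beside 9.80-fold for micropia.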

How the data were processed

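The tools named per the submitters' processing notes are Bowtie2 2.0.0 throughout, TopHat2 2.0.5 for steady-state RNA, DESeq 1.10.1 for both RNA assays and SICER 1.1 for chromatin, on build dm3. What each tool did is not stated there. The deposited tables give RPM per transposon family, by strand in RNA-seq and GRO-seq, and the ratio of H3K9me3 to input RPM, per the file headers. The authors' deposited comparison gives the quotient of the H3K9me3 to input ratios, a fold, its log2 and p-values. Its 6 columns of scaled reads name no sample and were not used here, nor were the region lists, which name no family.

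Every ChIP-seq RPM was a whole number of reads within 1e-06 for totals of 2514000 to 3047000, from which read numbers were taken. Of RNA-seq values under 3 RPM, the best single step made 28.2% to 70.0% whole within 0.02 reads, so the depth behind RNA-seq values is unknown, and GRO-seq values are given to few decimals.

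RNA ratios were log2 of RPM + 1 in piwi over white knockdown, which understates the change of low families, over families with a mean of at least 1 RPM in the 4 columns of a strand. With 1 sample a group there was no test, and 2-fold was the mark for counting. H3K9me3 ratios required 100 reads in each of 4 libraries and carry 95% intervals from the sum of reciprocal read numbers. Since PCR reads with no molecular identifiers are not independent, these cover counting error only. The calculation was run on simulated reads drawn independently, as the interval assumes, which cannot test it for reads that are not independent. Centred values subtract the median log2 ratio of all families. Reads of related families cannot be told apart.

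The members, lists and neighbours named were chosen with earlier results of these data known. Named families were the members, the 2 most like each by r, and those ranked next to a member under nos. Alternatives were other pseudocounts, level filters, read minimums and library totals, centring, and H3K9me3 without input. Python 3.11.15 with numpy 2.4.6, pandas 2.3.3 and matplotlib 3.10.9 was used.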

Additional observations from a re-analysis of the deposited data

Results flagged for a closer look

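The log2 ratio of nascent antisense RNA had opposite signs under nos and tj for mdg3 and Transpac. For mdg3 it was -0.49 with nos and 0.10 with tj, but after centring -0.62 with nos and -0.24 with tj, the same sign. For Transpac it was -0.013 with nos, near no change, and 0.85 with tj. After centring it was -0.14 with nos and 0.51 with tj for Transpac. With 1 library in each condition these differences were not tested.

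The H3K9me3 ratio (over input, piwi over white knockdown) under nos differed from that under tj beyond counting error for 3 members, by the 95% counting interval of the quotient. The quotient was 0.812 for Burdock, 0.743 for mdg3 and 0.747 for Transpac. Without input it was 0.798 for Burdock, 0.771 for mdg3 and 0.736 for Transpac. With the other library totals it was 0.571 for Burdock, 0.523 for mdg3 and 0.526 for Transpac, and there the interval of micropia lay below 1 too, at 0.706 (0.622 to 0.802). For the median family the quotient was 0.690 with the other totals, 0.981 with the totals of the transposon table and 1.01 without input. With the other totals 90.3% of families had an interval below 1.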

How the results depend on the processing

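No paired analysis was possible because each group had 1 sample. Sense RNA under nos, on which the members were chosen, was at least 2-fold higher for all 4 in RNA-seq and GRO-seq under each pseudocount, filter and centring tried, which the choice favours. Of the 4 sense RNA-seq values of micropia, only that of nos piwi lies above 10 RPM, and it carries micropia past the filter at that mean. With a mean of at least 10 RPM micropia dropped out of antisense RNA-seq. Under tj, a pseudocount of 5 RPM put micropia below 2-fold in sense RNA (log2 ratio 0.87). That left 2 of 4 members above it, beside 30 of 113 families. Centring left 0 members 2-fold higher in sense RNA in either assay, beside 24 of 113 families in RNA-seq and 16 of 122 in GRO-seq. A pseudocount of 0.1 RPM made 1 of 4 members, Transpac, 2-fold higher in antisense RNA under tj, beside 22 of 109 families. In antisense RNA under nos micropia fell below 2-fold with a pseudocount of 5 RPM (log2 ratio 0.79) and after centring (0.74).

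H3K9me3 without input put the ratio above 1 for mdg3 (1.07) and micropia (1.11) under tj and for micropia (1.07) under nos. Transpac under tj then stood at 1.0 (0.941 to 1.06), and mdg3 under tj with the other library totals at 1.01 (0.955 to 1.07), with intervals that span 1. Under tj, 1 member kept an interval below 1 with either of these settings. Under nos the interval of micropia after centring reached 1.01, at a ratio of 0.928. Of all families, those with an interval below 1 were 20 after centring and 10 with the other totals under tj, and 28 after centring and 44 without input under nos.

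After centring, families at least 2-fold higher and lower were 38 and 15 in sense RNA under nos, 24 and 15 under tj, and 24 and 11 in antisense RNA under nos; 11 were higher in antisense RNA under tj. In GRO-seq they were 27 and 8 in sense RNA under nos, 16 higher under tj, and in antisense RNA 3 lower under nos and 10 and 2 under tj. With a pseudocount of 0.1 RPM, 2 families were 2-fold lower in sense RNA under nos in each assay, and 4 in RNA-seq under tj. With a pseudocount of 5 RPM 29 families were higher in antisense RNA under nos and 11 under tj, and with a mean of at least 10 RPM 30 and 12. The cause of these changes was not tested, other than that the stricter filter leaves fewer families.

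The number of reads sets the intervals of H3K9me3 and input, while no error can be given for RNA-seq and GRO-seq values, least so for micropia, with 1.01 to 5.37 antisense RPM in RNA-seq.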
